A study of Mus musculus with 95 samples.

Results

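The Mageb genes encode MAGE proteins of the B subfamily. They were taken as every gene of the count table whose symbol is Mageb followed by a number, with at least 1 count in any RNA-seq library. Of 23377 genes in the table, 8 carried such a symbol and 6 had a count: Mageb1, Mageb3, Mageb4, Mageb16, the pseudogene Mageb16-ps1 and Mageb18. Mageb2 and Mageb5 had 0 counts in all 14 libraries and lay just outside the rule. Mageb1 lay just inside it, with 2 counts, both in Pcgf3/5-/- library 1. The gene family was chosen by the level of Mageb4 in Pcgf6-/- cells, which was already known, so the values of that genotype against wild-type, and the calls counted there, are given as a description, without a p-value.

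MAGE proteins share a conserved domain, the MAGE homology domain, through which they bind RING-type E3 ubiquitin ligases and alter what these ligases modify. The type I genes, which include the MAGE-A, MAGE-B and MAGE-C subfamilies, lie mostly on the X chromosome. They are normally active in germ cells of the testis and silent in most other tissues, and many are switched on in tumours, which gave them the name cancer-testis antigens. In embryonic stem cells, many germline genes are held silent by a variant Polycomb repressive complex 1 that contains PCGF6 together with MGA, MAX, E2F6 and L3MBTL2. RING1B, the catalytic subunit shared by all such complexes, places ubiquitin on histone H2A, the mark H2AK119ub1. Trimethylation of histone H3 at lysine 4 (H3K4me3) marks the starts of active genes.

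The cells were mouse E14 embryonic stem cells, an established male line, all kept on gelatin in serum medium that also held LIF, a GSK3β inhibitor and a MEK1/2 inhibitor. Poly-A RNA was sequenced from 7 genotypes with 2 libraries each: wild-type, Pcgf1-/-, Pcgf2/4-/-, Pcgf3/5-/-, Pcgf6-/-, Pcgf1/2/4-/- and Pcgf3/5/6-/-. The knockouts were isolated as clones after editing with Cas9, and lines lacking several genes were edited again from single-knockout clones. The sources used here do not say whether the 2 libraries of a genotype were separate cultures or clones, so p-values measure only the spread between these libraries. The 80 ChIP-seq peak lists, also labelled E14, covered these genotypes, Ezh1/2-/-, Ring1a-/-_Ring1bfl and Ring1a/b-/-. Others came from lines with short hairpins labelled shMGA, shMGAdHLH, shE2F6, shE2F6-MGAdHLH, shUsf1, shUsf2 and shCtr, the control. Nearly every antibody and genotype had 1 list.

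Libraries held between 2147968 and 7848161 counts. The 10 pluripotency markers examined were all detected, with a summed level of 1860 to 3799 CPM (read counts scaled to library size after TMM scaling) over the libraries. The 2 wild-type libraries differed from each other by less than sampling noise (χ2 per degree of freedom 0.958, against 1.18 to 19.5 for the other pairs). Their levels are therefore given singly and count as 1 sample, although the fit kept both. Pcgf6 mRNA was at 0 counts in both Pcgf6-/- libraries, against 36.2 and 34.3 CPM in wild-type. It stood at 42.0 and 37.2 CPM in the libraries labelled Pcgf3/5/6-/-, so the mRNA did not check that label. Pcgf1 mRNA was 63.6 CPM in wild-type, 4.01 CPM in Pcgf1-/- and 0.72 CPM in Pcgf1/2/4-/-. The mRNA of the other targeted genes was present in the lines that target them.

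The members lie at 5 places on the X chromosome and 1 on chromosome 2 (NCBIM37, also called mm9, with the GENCODE M1 annotation). Mageb4 (ENSMUSG00000035427.11) covers chrX:83495593-83550432 on the minus strand, with 3139 exonic bases and transcript starts at 83501558, 83550377 and 83550432. Mageb16 (ENSMUSG00000046942.10) covers chrX:76868570-76916774 on the minus strand, with 1946 exonic bases, inner starts at 76880905 and 76880921 and an outer start at 76916774. Mageb18 (ENSMUSG00000067649.3) covers chrX:89364218-89844911 on the minus strand, with 2243 exonic bases. Mageb1 (ENSMUSG00000062162.2) lies at chrX:89260530-89261672, and Mageb16-ps1 (ENSMUSG00000082106.2) at chrX:140989721-140990880 within Trpc5. Mageb3 (ENSMUSG00000074881.3), at chr2:121779488-121781096, is the only autosomal member.

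The promoters of 4 members were found in RefSeq (table of build GRCm38.p6), and each sequence occurred without a mismatch in NCBIM37. They are shown because they differ in copy number and in CpG content. The peaks described further on were looked for around the GENCODE M1 starts. These include the RefSeq starts of Mageb4, Mageb16 and Mageb18 but not that of Mageb3. Each line gives the 250 bases before the RefSeq start, 5′ to 3′ on the gene's strand, with every CpG in capitals.
Mageb4: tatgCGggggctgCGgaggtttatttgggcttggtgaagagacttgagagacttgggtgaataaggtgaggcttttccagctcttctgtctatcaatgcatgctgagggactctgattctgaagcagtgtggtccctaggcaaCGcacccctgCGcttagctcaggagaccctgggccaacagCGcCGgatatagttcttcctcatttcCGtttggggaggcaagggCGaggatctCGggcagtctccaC
Mageb18: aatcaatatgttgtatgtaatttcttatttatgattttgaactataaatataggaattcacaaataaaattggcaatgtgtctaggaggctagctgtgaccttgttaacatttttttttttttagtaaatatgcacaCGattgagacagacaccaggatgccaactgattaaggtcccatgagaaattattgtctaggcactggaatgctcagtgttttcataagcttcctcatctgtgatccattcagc
Mageb16: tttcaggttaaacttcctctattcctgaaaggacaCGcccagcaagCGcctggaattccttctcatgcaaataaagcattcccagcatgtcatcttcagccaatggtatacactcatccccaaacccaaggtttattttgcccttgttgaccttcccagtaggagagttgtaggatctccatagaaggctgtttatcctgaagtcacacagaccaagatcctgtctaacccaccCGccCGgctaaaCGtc
Mageb3: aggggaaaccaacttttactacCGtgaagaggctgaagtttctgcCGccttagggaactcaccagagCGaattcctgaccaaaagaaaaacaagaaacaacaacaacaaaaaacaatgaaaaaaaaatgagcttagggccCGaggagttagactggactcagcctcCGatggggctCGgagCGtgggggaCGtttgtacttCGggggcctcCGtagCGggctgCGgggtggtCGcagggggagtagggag

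The 300-base RefSeq window of Mageb4 (250 bases before to 50 after the start) occurred at 2 places, chrX:83501509-83501808 and chrX:83550383-83550682, both on the minus strand. They cover the inner and the outer annotated start and lie 48.874 kb apart. The identical stretch around them was 678 bases long. Of 1215 X-chromosome promoters found in the build, 90 (7.41%) occurred more than once on that chromosome. The Mageb3, Mageb16 and Mageb18 windows each occurred once. Mageb3 had 20 CpGs, an observed over expected ratio of 0.878, and Mageb4 had 11, a ratio of 0.478. Mageb16 had 6 CpGs (0.335) and Mageb18 had 1 (0.114), against a median ratio of 0.384 over 32851 promoters. The motifs CACGTG (an E-box), AGGTGTGA (part of a T-box site) and GCGGGAA (an E2F site) were searched on both strands. No member window held any of them, while 7.15%, 1.28% and 4.60% of all promoters did.

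Mageb4 was near the detection limit in wild-type cells and had the largest difference in CPM between genotypes among the members, while the fold of Mageb18, from 0 counts, has only a lower bound. The wild-type libraries held 11 and 5 reads (1.57 and 0.703 CPM), and the Pcgf6-/- libraries 1528 and 1275 reads (190 and 195 CPM). The libraries labelled Pcgf3/5/6-/- held 222 and 240 reads, or 70.1 and 81.1 CPM. The Pcgf3/5-/- libraries had 39 and 17 reads (5.21 and 3.26 CPM), both above both wild-type libraries. Values elsewhere were 0.838 and 2.43 CPM in Pcgf2/4-/-, 0.765 and 0.229 CPM in Pcgf1-/-, and 0.534 and 0.452 CPM in Pcgf1/2/4-/-. The 2 genotypes labelled as lacking PCGF6 thus stood apart from the other 5, and both Pcgf6-/- libraries were above both libraries labelled Pcgf3/5/6-/-. Below Pcgf3/5-/-, neighbours in the order of mean levels (Pcgf2/4-/-, wild-type, Pcgf1-/- and Pcgf1/2/4-/-) overlapped in their libraries.

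**Figure D1:**
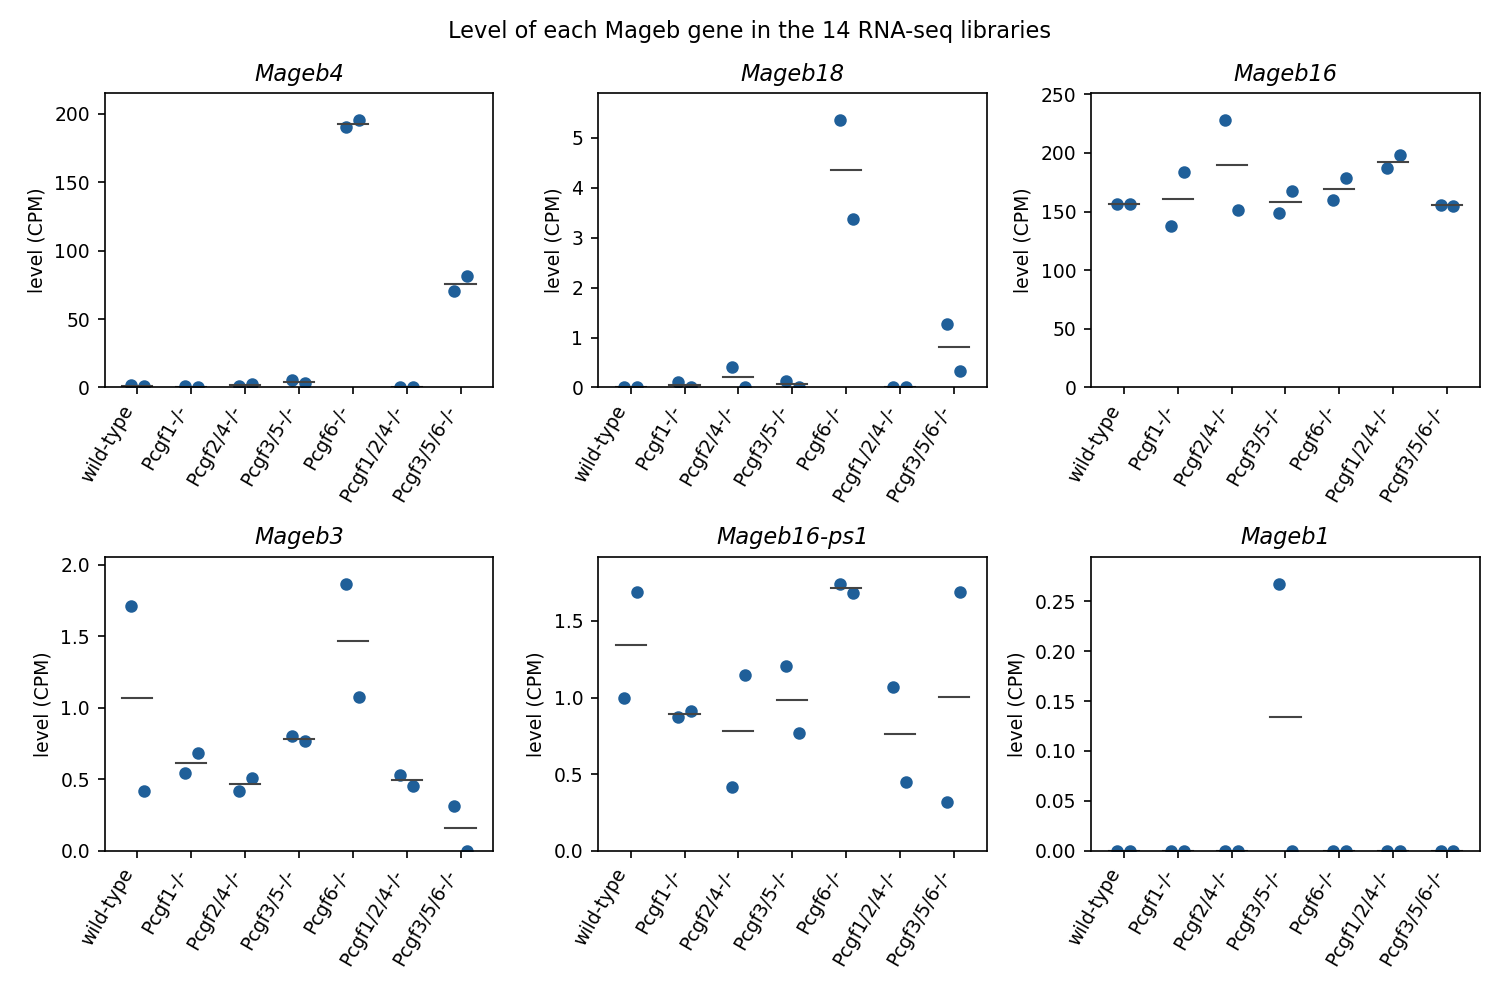
Expression of the Mageb genes in each RNA-seq library by genotype, in CPM on linear axes that differ between genes; each point is 1 library and each line the mean of 2. Mageb4 is at 190 and 195 CPM in Pcgf6-/- and at 70.1 and 81.1 CPM in the libraries labelled Pcgf3/5/6-/-, while Mageb16 lies between 138 and 228 CPM in every library.

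On pooled reads, Mageb4 was 170-fold higher in Pcgf6-/- than in wild-type (95% exact counting interval 104 to 298). The fitted log2 fold change of 7.38 became 8.05 without wild-type library 1 and 6.92 without wild-type library 2. In the libraries labelled Pcgf3/5/6-/- the ratio was 66.6 (40.6 to 117), and in Pcgf3/5-/- it was 3.89 (2.20 to 7.27). These intervals cover counting error only. In edgeR's quasi-likelihood fit across 15464 genes, Mageb4 in the libraries labelled Pcgf3/5/6-/- had a log2 fold change of 6.03 (SE 0.27, Benjamini-Hochberg adjusted p = 1e-09). It ranged from 5.56 to 6.69 when each library was left out in turn. The same fit gave 1.93 in Pcgf3/5-/- (SE 0.40, adjusted p = 0.00361). That call depended on single libraries: without wild-type library 2 the log2 fold change was 1.46 (edgeR adjusted p = 0.0539), and without Pcgf3/5-/- library 1 it was 1.50 (edgeR adjusted p = 0.0725). In the authors' deposited table the Pcgf3/5-/- value was 1.96 with an adjusted p of 0.000147. All these comparisons share the wild-type libraries and are not independent of each other.

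Between lines whose labels share targeted genes, Mageb4 was 4.10 log2 units higher in the libraries labelled Pcgf3/5/6-/- than in Pcgf3/5-/- (SE 0.22, edgeR adjusted p = 5.74e-09). Against Pcgf6-/- it was 1.35 log2 units lower (SE 0.15), given as a description because the Pcgf6-/- level chose the gene. No change of Mageb4 was called by edgeR in Pcgf1-/- (log2 fold change -0.92, SE 0.62, adjusted p = 0.289), in Pcgf2/4-/- (0.83, SE 0.50, adjusted p = 0.259) or in Pcgf1/2/4-/- (-1.17, SE 0.97, adjusted p = 0.362). In Pcgf1/2/4-/- the libraries were small, and 1 read was seen in each. A fall from the wild-type level was not detectable at this depth, since the pooled ratio of 0.432 had a counting interval of 0.0482 to 1.84.

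Mageb18, whose human counterpart pairs with the ubiquitin ligase LNX1, was at 0 counts in both wild-type libraries. It had 43 and 22 reads (5.35 and 3.37 CPM) in Pcgf6-/-, at least 21.0-fold higher than wild-type against a floor of 3 counts over the group. The libraries labelled Pcgf3/5/6-/- held 4 reads and 1 read (1.26 and 0.338 CPM), at least 3.84-fold higher. No other genotype had more than 1 read in a library. edgeR's adjusted p for the libraries labelled Pcgf3/5/6-/- was 0.0233, and this rested on 5 reads. It was 0.0750 without wild-type library 1, 0.0760 without wild-type library 2 and 0.224 without library 1 labelled Pcgf3/5/6-/-. Mageb18 passed the filter on low counts only through Pcgf6-/-, so it had to differ there.

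Mageb16 was the abundant member in wild-type cells, with 1098 and 1114 reads, or 157 CPM in each library. It supplied 77.2% of the 15764 reads assigned to members, and Mageb4 supplied 21.4%. Per kilobase of exon, Mageb16 stood at 80.5 CPM in wild-type, while Mageb4 reached 61.4 CPM per kilobase in Pcgf6-/- and Mageb18 reached 1.94. Over all 14 libraries Mageb16 ran from 138 to 228 CPM, with a median of 158. Its pooled ratio to wild-type lay between 0.972 and 1.23 in the 6 knockouts. In Pcgf6-/- its edgeR log2 fold change was 0.11 (95% interval -0.28 to 0.49). In the libraries labelled Pcgf3/5/6-/- it was -0.01 (-0.41 to 0.38, edgeR adjusted p = 0.959). The widest pair was Pcgf2/4-/-, at 228 and 152 CPM, where the log2 fold change was 0.26 (-0.13 to 0.65, adjusted p = 0.324). These intervals leave room for changes of up to about 0.69 log2 units upward in Pcgf1/2/4-/-, where the interval was widest on that side.

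Mageb3 and Mageb16-ps1 were low in every library. Mageb3 had 12 and 3 reads in wild-type (1.71 and 0.422 CPM), 15 and 7 in Pcgf6-/- (1.87 and 1.07 CPM), and 1 and 0 in the libraries labelled Pcgf3/5/6-/-. Its edgeR log2 fold change in the last of these against wild-type was -2.54 (SE 1.12, adjusted p = 0.0699), with a pooled ratio of 0.154 (counting interval 0.00365 to 0.999). Against Pcgf6-/- the difference was -3.04 (SE 1.04, edgeR adjusted p = 0.027). That call was lost with DESeq2 (adjusted p = 0.118) and without library 1 or library 2 labelled Pcgf3/5/6-/- (edgeR adjusted p = 0.0602 and 0.187). Mageb16-ps1 ran from 0.316 to 1.74 CPM and was called in no comparison. Mageb1, Mageb2 and Mageb5 were not tested, and the floor of 3 counts allows them up to 0.328 to 1.60 CPM, depending on the library.

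Of the 6 members, 5 passed the filter and were tested. In Pcgf6-/-, 2 were called higher (Mageb4 and Mageb18), beside 27.8% of all genes tested, a contrast that the choice of genes used. In the libraries labelled Pcgf3/5/6-/- the same 2 genes were called higher, beside 28.0% of all genes, and in Pcgf3/5-/- 1 was (Mageb4), beside 11.1%. Lower calls made up 18.6%, 25.3% and 10.4% of all genes in these 3 comparisons. edgeR called 0 members in Pcgf1-/-, Pcgf2/4-/- and Pcgf1/2/4-/-, where 32.3%, 21.6% and 37.0% of all genes were called in either direction. In these 3 comparisons 0 members had an unadjusted p below 0.05, and DESeq2 called 0. The libraries labelled Pcgf3/5/6-/- against Pcgf6-/- gave 3 called members, all lower (Mageb3, Mageb4 and Mageb18), where 46.0% of all genes were called in either direction. The Pcgf6-/- level chose Mageb4 and let Mageb18 pass the filter, so their lower values in this contrast are a description. The Mageb18 call was also lost with DESeq2, without Pcgf6-/- library 1 and without library 2 labelled Pcgf3/5/6-/-. With each of these 3 changes the count of called members fell to 1. Against Pcgf3/5-/- the libraries labelled Pcgf3/5/6-/- gave 1 higher member (Mageb4), beside 27.1%. No test of these small counts against the background was made.

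**Figure D2:**
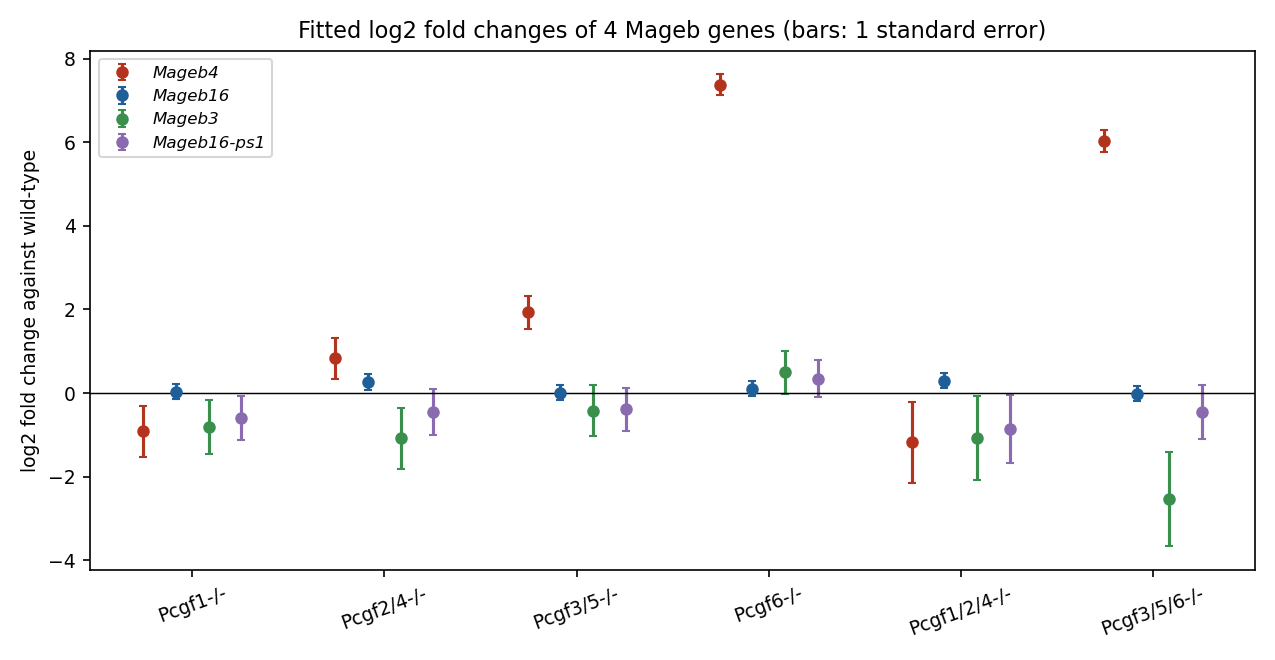
Log2 fold change of 4 tested Mageb genes in each knockout against wild-type from edgeR (vertical axis), with bars of 1 standard error; Mageb18 is left out because its wild-type libraries are at 0. Mageb4 is at 7.38 in Pcgf6-/-, 6.03 in the libraries labelled Pcgf3/5/6-/- and 1.93 in Pcgf3/5-/-, and the Mageb16 points lie between -0.01 and 0.30.

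The genes whose pattern over the 7 genotypes was most like that of Mageb4 were ranked by Pearson correlation of group-mean log2 CPM. They were Ehd3 (r = 0.996), which encodes an endocytic trafficking protein, Il1r2 (0.996), the decoy receptor of interleukin 1, Slc6a19 (0.992), a transporter of neutral amino acids, Aga (0.992), a lysosomal enzyme, and Mir22hg (0.992), the host of a microRNA. The 7 points share their libraries, and 2 of them carry the high values. Mean levels in wild-type, Pcgf6-/- and the libraries labelled Pcgf3/5/6-/- were 5.16, 42.0 and 31.9 CPM for Ehd3. Il1r2 stood at 0, 22.4 and 13.7 CPM, and Aga at 28.7, 85.6 and 59.6 CPM.

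How far reads could be assigned to 1 member was examined from the genome, since the ChIP reads were 50 bases long and the handling of reads with several matches is not given in the sources used here. Every 50-base window of a member's exons was compared with the whole of NCBIM37. Mageb18 had 0% of its windows repeated elsewhere at this length and 1.76% at 30 bases. The length was taken from the ChIP reads, and the read length of the RNA-seq libraries was not taken into account. In Mageb4, 1934 of 2845 windows (68.0%) occurred at another place. Most of these repeats lay within the same gene, because 68.3% of the distinct windows lay in the copy at chrX:83544841-83550432. The gene annotated as Mageb10-ps, on the same strand, shares 681 exonic bases with Mageb4 (21.7% of its exonic length) and 58.2% of its distinct windows. Mageb10-ps is not a row of the count table, so its reads and those of Mageb4 cannot be told apart here.

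Mageb16 had 88.8% of windows repeated, and it shared 19.6% of windows with Mageb16-ps1. Which of its windows supplied the 157 CPM in wild-type cells cannot be told from the counts. Mageb1 and Mageb2 shared 90.9% of windows with each other, and 38.5% of Mageb1 windows were found in Mageb3, which had 37.6% repeated in all. Mageb16-ps1 had 30.1% repeated and Mageb5 had 81.1%, all of the latter shared with Gm14781. A read counted only where it matches once could not come from these windows, so the 0 counts of Mageb2 and Mageb5 and the 2 of Mageb1 rest on the few windows that are found once. Reads that fit several places in the genome equally well make the levels of all members except Mageb18 uncertain.

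**Figure D3:**
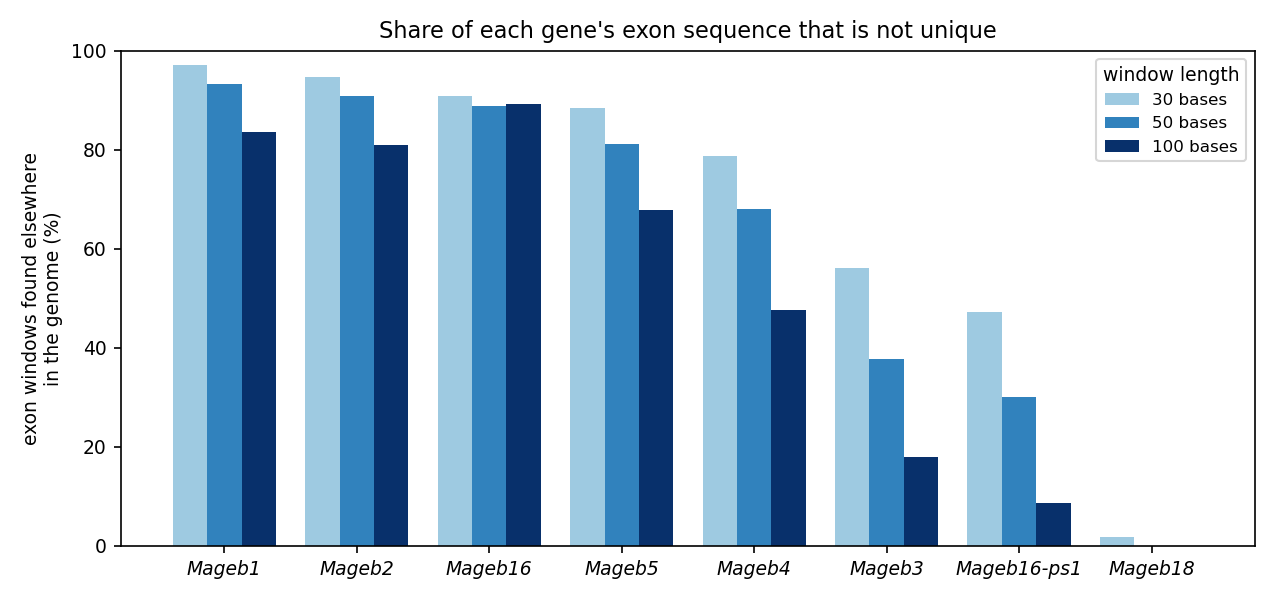
Share of each Mageb gene's exon windows that occur exactly at another place in NCBIM37, in percent, for windows of 30, 50 and 100 bases. Mageb18 is at 0% for 50 bases, and Mageb4 goes from 78.7% to 47.6% between 30 and 100 bases.

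The genes beside the members were examined as well. Nr0b1 (DAX1), an orphan nuclear receptor active in embryonic stem cells, lies 54306 bases from Mageb4 and was lower where Mageb4 was high. It was at 158 and 153 CPM in wild-type and at 60.9 and 56.2 CPM in Pcgf6-/- (log2 fold change -1.41, SE 0.16, as a description). In the libraries labelled Pcgf3/5/6-/- its log2 fold change was -0.91 (edgeR adjusted p = 3e-04). Il1rapl1, on the other side at 435776 bases, stayed between 0 and 0.316 CPM. Of the poorly described genes beside Mageb genes, Gm7173, 1700003E24Rik and Gm44 were at 0 in wild-type and present in Pcgf6-/-, while Gm5072, Gm14781 and Zcchc16 were at 0 in both. Gm7173, beside Mageb16, had 6.35 and 4.90 CPM (at least 26.8-fold higher). 1700003E24Rik, beside Mageb18, had 3.61 and 2.45 CPM (at least 14.5-fold higher). Gm44, beside the silent Mageb2, had 25.4 and 26.0 CPM (at least 121-fold higher).

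**Figure D4:**
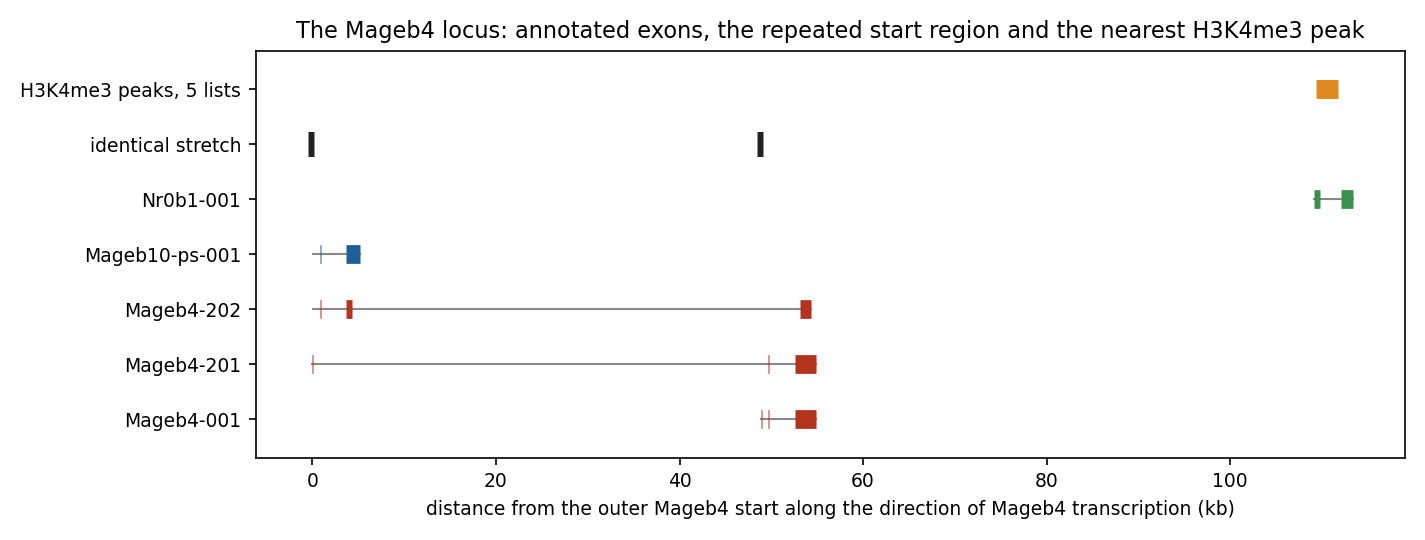
Map of the Mageb4 region by distance in kilobases from the outer Mageb4 start, running in the direction of its transcription, with exons as boxes, the identical 678-base copies in black and the nearest H3K4me3 peak of each of 5 lists in orange. These peaks lie within Nr0b1, more than 60 kb from the nearest Mageb4 start, and none lies at either copy of the Mageb4 promoter.

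The other MAGE genes were set beside the B subfamily, 17 in all (the Magea, Maged, Magee, Mageh and Magel genes with Ndn, Ndnl2 and Tro), of which 16 were tested. In Pcgf6-/-, 10 were called higher and 1 lower (27.8% and 18.6% over all genes), with a median log2 fold change of 2.12 against 0.03 over all genes. Magea3 and Magea6 had 0 reads in wild-type and at most 4 and 8 reads in any library outside Pcgf6-/-. Like Mageb18, they passed the filter on low counts through Pcgf6-/- and had to differ there. The count and the median are therefore a description. Magea5 was at 18.9 and 16.7 CPM (at least 84.4-fold higher than wild-type, which had 0) and Magea2 at 13.9 and 12.7 CPM (at least 63.0-fold higher). Ndnl2, which encodes a subunit of the SMC5-SMC6 complex, was the called gene that fell, by 0.52 on the log2 scale. In Pcgf3/5-/-, 7 were higher and 1 lower (11.1% and 10.4% over all genes), with a median of 0.73, or 0.67 with genes at 0 in wild-type set to their bound. Magea5 was at least 33.4-fold and Magea2 at least 9.27-fold higher there, while Magee2 was lower (log2 fold change -3.17). Of the same 16 genes, 10 were higher and 2 lower in the libraries labelled Pcgf3/5/6-/- (28.0% and 25.3% over all genes), with a median of 1.60.

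Within the MAGE family the order of the genotypes differed for Magea4 and Magel2, which were chosen after their values were seen. Magea4 was at 5.99 and 7.74 CPM in wild-type, 40.0 and 40.7 CPM in Pcgf3/5-/-, 8.47 and 7.66 CPM in Pcgf6-/- and 2.53 and 2.70 CPM in the libraries labelled Pcgf3/5/6-/-. Mageb4 was highest in Pcgf6-/- instead. Magel2, an imprinted gene, was at 0 in wild-type, at 9.08 ± 2.66 CPM (SD, n = 2) in Pcgf6-/- and at 14.4 ± 1.61 CPM (SD, n = 2) in the libraries labelled Pcgf3/5/6-/-. Magea genes are close relatives of each other, and how their reads were divided was not tested.

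Of 22 germline genes on a list drawn up with results of these libraries known, 20 were tested. In Pcgf6-/-, 19 were called higher and 1, Stag3, lower (log2 fold change -0.45), beside 27.8% and 18.6% of all genes, with a median of 3.44. In the libraries labelled Pcgf3/5/6-/- 18 were higher and 1 lower (28.0% and 25.3% of all genes), with a median of 3.13. In Pcgf3/5-/- 9 were higher and 4 lower (11.1% and 10.4% of all genes), with a median of 0.30. Of the ubiquitin ligases known to pair with MAGE proteins, 6 were tested, and edgeR and DESeq2 called 0 in Pcgf6-/-, with 1 at an unadjusted p below 0.05, where 27.8% of all genes were higher and 18.6% lower. In Pcgf1/2/4-/-, where 22.6% of all genes were lower, 4 fell, including Lnx1 (by 1.31 log2 units) and Pja1 (by 1.05 log2 units). Of 14 subunits of the PCGF6 complex, edgeR called Yaf2 (0.77) and E2f6 (0.64) higher and Mga (-0.97), Ring1 (-0.94) and Pcgf6 itself lower in Pcgf6-/-.

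Markers of other cell types also differed in the genotypes where Mageb4 was high, in both directions. Over 6 male germ cell markers, the summed level was 2.43 to 4.08 CPM in wild-type, 9.35 to 12.5 CPM in Pcgf6-/- and 9.80 to 10.7 CPM in the libraries labelled Pcgf3/5/6-/-. Prm1, a protamine of sperm heads, and Acrv1, an acrosomal protein, were at 0 in all of these libraries, and Tnp1 was at 6.22 and 4.90 CPM in Pcgf6-/- against 0 in wild-type. The 6 primitive endoderm markers summed to 3.09 to 3.57 CPM in wild-type, 48.1 to 55.0 CPM in Pcgf6-/- and 56.6 to 65.2 CPM in the libraries labelled Pcgf3/5/6-/-. Dab2 alone gave 42.5 and 38.5 CPM of the Pcgf6-/- sums, while Gata4 had 1 read in each Pcgf6-/- library. Sox7 was at 1.85 and 1.13 CPM in wild-type and at 1.12 and 0.766 CPM in Pcgf6-/-. The 6 trophoblast markers summed to 116 to 121 CPM in wild-type, 83.8 to 91.1 CPM in Pcgf6-/- and 322 to 328 CPM in the libraries labelled Pcgf3/5/6-/-. Among them Cdx2 was at a mean of 74.4 CPM in wild-type and 5.37 CPM in Pcgf6-/-, and Gata3 at 13.2 and 41.5 CPM. The 4 neuronal markers summed to 82.0 to 84.7 CPM in wild-type and 61.4 to 70.8 CPM in Pcgf6-/-, and the 6 fibroblast markers to 7.45 to 10.6 and 24.4 to 28.6 CPM. The 5 two-cell-stage markers in the table summed to 102 to 104 CPM, 463 to 511 CPM and 281 to 285 CPM in the same order, and to 14.6 to 15.9 CPM in Pcgf3/5-/-. The part of these markers in the level of Mageb4 was not tested. In bulk RNA, more cells that express a gene and more RNA per cell cannot be told apart.

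Peaks were then looked for within 2.5 kb of every annotated start. There were 12 PCGF6 lists, 8 RING1B lists and 5 H3K4me3 lists. The PCGF6 lists covered wild-type, 4 Pcgf knockouts, a line without Ring1a and with floxed Ring1b, its Ring1a/b-/- form, and 5 lines with short hairpins, 1 of them a control. No PCGF6 or RING1B peak lay near any member in any of these lists. Mageb4, Mageb18, Mageb1 and Mageb16-ps1 had no peak of any antibody in any of the 80 lists, also not within 10 kb. The nearest wild-type PCGF6 peak lay 7675.3 kb from a Mageb4 start and 1380.9 kb from a Mageb18 start. The nearest wild-type RING1B peaks lay 6981.2 and 686.7 kb away. Over all lists, the nearest PCGF6 peak to Mageb4 was 336.86 kb away, in Ring1a/b-/- cells.

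The background in the same lists was low on the X chromosome. In wild-type cells 5.77% of 22380 protein-coding genes had a PCGF6 peak within 2.5 kb of a start, and 0.966% of 932 genes on the X chromosome did. For RING1B the shares were 15.1% and 7.62%. Among the germline genes, 18 of the 20 that were annotated had a wild-type PCGF6 peak and 15 a RING1B peak, which fell to 7 and 2 in the Pcgf6-/- lists. Ddx4, Dazl and Mael were among the 18. Of the 17 other MAGE genes, 1 had a wild-type PCGF6 peak (Ndn) and 2 a RING1B peak (Ndn and Magel2). Mageb4 and the Magea genes had no called PCGF6 peak near a start although several were higher in Pcgf6-/-.

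Mapping limits what an absent peak says at Mageb4 and Mageb1. Within 2.5 kb of the Mageb4 starts, 46.0% (inner) and 61.1% to 62.2% (outer) of 50-base windows occurred elsewhere in the genome. Inside the identical 678-base stretch that holds these starts, every such window occurs at both copies. Around the Mageb1 starts the shares were 68.7% and 69.2%. They were 7.23% and 0.848% around the Mageb18 starts, and 0.283% (inner) and 6.26% (outer) around those of Mageb16. Whether reads with several matches were kept before peak calling is not given in the sources used here, and the part of this in the absence of peaks was not tested. For Mageb18, which is nearly free of repeats, no peak was called either. Its mean level in Pcgf6-/- was 4.36 CPM, against 193 CPM for Mageb4, so it cannot stand in for Mageb4.

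H3K4me3 peaks were present at 2 members, in all 5 lists (wild-type, Pcgf1-/-, Pcgf2/4-/-, Pcgf3/5-/- and Pcgf6-/-), where 66.2% of all genes and 49.7% of X-chromosome genes had one in wild-type. The peak caller's fold enrichment, which is the authors' value, was 25.8 at the inner Mageb16 starts in wild-type (chrX:76880212-76881614). In Pcgf1-/-, Pcgf2/4-/-, Pcgf3/5-/- and Pcgf6-/- it was 33.3, 28.3, 25.7 and 22.2. At the outer start it was 14.7 in wild-type and 17.8 in Pcgf6-/-. With 1 list per genotype these values have no replicate check. The inner starts, away from the RefSeq promoter shown above for Mageb16, thus carried the stronger peak in every list.

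The Mageb3 peak had folds of 82.9 in wild-type and 88.1 in Pcgf6-/- (chr2:121780884-121784459 in wild-type). It also covers the start of Ctdspl2, which lies on the opposite strand 640 bases from Mageb3, so the 2 genes cannot be told apart in it. The RefSeq promoter of Mageb3, chr2:121781779-121782078, lies downstream of that Ctdspl2 start at 121781737. PCGF2 peaks near Mageb3 were called in Pcgf1-/- (fold 9.92), Pcgf2/4-/- (10.8), Pcgf3/5-/- (7.25) and Pcgf6-/- (9.01), and not in wild-type. Each of these peaks covers the Ctdspl2 start, so Mageb3 and Ctdspl2 cannot be told apart in them either. The Pcgf2/4-/- line lacks PCGF2 by its label, and its peak was the highest of the 4. An H2AK119ub1 peak (fold 5.38) lay 1187 bases from the Mageb3 start in Pcgf3/5-/-, inside Ctdspl2. That list held 128786 peaks and reached 65.0% of all genes, against 1741 peaks and 3.76% in wild-type. For PCGF2 the share of genes with a peak was 12.7% in wild-type, 12.4% in Pcgf1-/-, 3.40% in Pcgf2/4-/-, 9.59% in Pcgf3/5-/- and 19.5% in Pcgf6-/-.

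**Figure D5:**
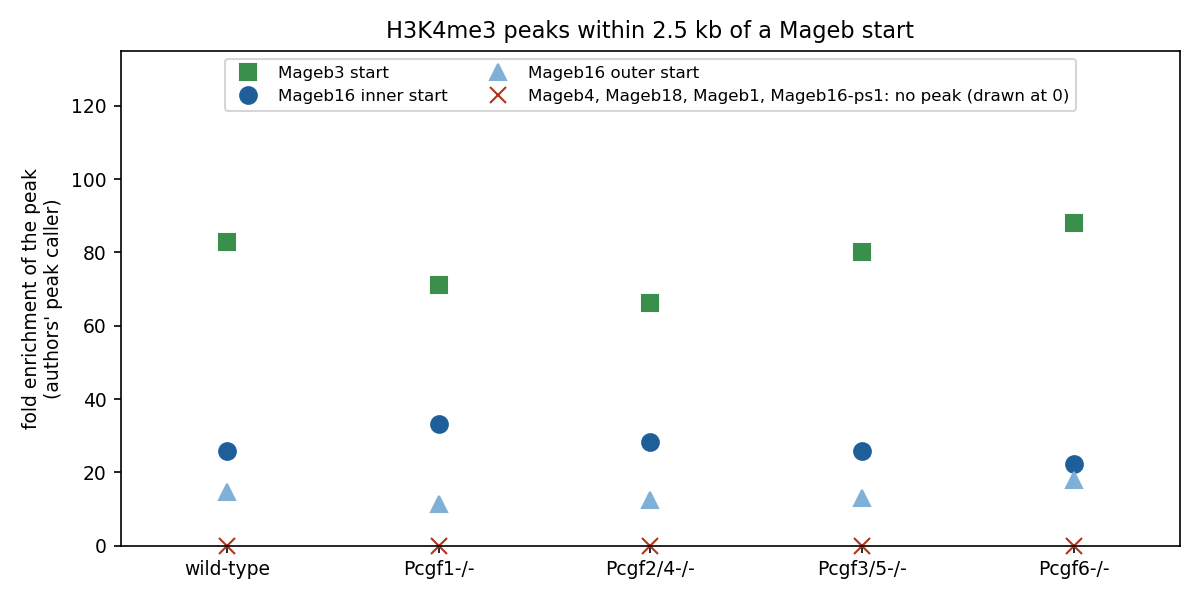
Fold enrichment of the authors' H3K4me3 peaks within 2.5 kb of a Mageb start (vertical axis) in the 5 genotypes with a list; each point is 1 peak, and crosses at 0 mark members with no peak. Mageb3 lies between 66.2 and 88.1 and the inner Mageb16 starts between 22.2 and 33.3, each above the outer Mageb16 start of the same list.

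The H3K4me3 peak nearest to Mageb4 lay 60.7 kb from a start in wild-type and between 60.5 and 61.9 kb in the 5 lists, always within Nr0b1. The nearest peak was not the same interval in every list. That of Pcgf6-/- (chrX:83439060-83439696) overlapped neither that of Pcgf1-/- (chrX:83440479-83440945) nor that of Pcgf3/5-/- (chrX:83440123-83440985). The folds of these nearest peaks were 14.3 in wild-type, 9.61 in Pcgf1-/-, 15.0 in Pcgf2/4-/-, 10.6 in Pcgf3/5-/- and 6.91 in Pcgf6-/-. The lowest fold was in Pcgf6-/-, where the Nr0b1 mRNA was lower. The next lowest was in Pcgf1-/-, where Nr0b1 stood at 166 and 232 CPM, against 158 and 153 CPM in wild-type. A link between these folds and the Nr0b1 mRNA was not tested. Mageb4 itself, at 190 and 195 CPM in Pcgf6-/-, had no called H3K4me3 peak at either copy of its promoter. Both copies lie within the identical 678-base stretch, where a 50-base read matches both places, so an absent peak says little there. All 20 annotated germline genes had a peak in the Pcgf6-/- list, against 14 in wild-type. The shares over all genes were 67.9% and 66.2%. No H3K4me3 list of the triple knockouts was used here.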

How the data were processed

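The 14 RNA-seq libraries came from 7 genotypes with 2 libraries each, and the members and gene lists were chosen with earlier results of these data known. The authors deposited whole-number counts per gene symbol without normalization. The submitters' processing notes name TopHat2 2.1.1, Bowtie 1.2.2, HTSeq 0.7.2, DESeq2 3.7, MACS2 2.1.1 and build mm9, without their roles. The authors' deposited comparison tables held log2 fold changes, adjusted p-values and mean normalized counts as a signal scale, per the file headers. The authors deposited 80 peak lists with fold ratios over background, −log10 p and −log10 q values in the columns of MACS output, called on 1 sample each. The number of sample columns left unmapped was 0.

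Counts were tested with edgeR 4.0.16 in R 4.3.3: TMM factors, filterByExpr (15464 genes left), 1 quasi-likelihood fit over all libraries, and Benjamini-Hochberg adjustment over all genes with a threshold of 0.05. The common biological coefficient of variation was 12.3%. On simulated counts the fit recovered 89 of 100 genes changed by 1 log2 unit and 100 of 100 changed by 2. The changed genes were drawn at mean levels above those of Mageb3, Mageb16-ps1 and Mageb18, with a dispersion of 0.015 for every gene. Recovery at the low levels of these members was therefore not measured. DESeq2 1.42.0 was an alternative. Folds against a group at 0 used a floor of 3 counts for the whole group, and intervals and floors cover counting error only. For CPM, counts were divided by library size after TMM adjustment. Histone spike-in scaling was not used here.

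Named genes are all Mageb genes, the targeted genes, genes beside or overlapping a member, the 5 genes most correlated with Mageb4, and examples from the lists. The examples were planned as the 2 highest and the 2 lowest called genes of a list. Some named genes fall outside that rule, such as the markers Prm1 and Acrv1, and Magea4 and Magel2 were chosen after their values were seen. Peaks within 2.5 kb of a GENCODE M1 start in NCBIM37 were counted as near. Exon windows of 30, 50 and 100 bases were searched on both strands of the whole genome.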

Additional observations from a re-analysis of the deposited data

How the results depend on the processing

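Of the log2 fold changes of members under alternatives (RLE scaling, no filter on low counts, DESeq2, the 2 groups alone, the replicate number as a block, each library left out, and the wild-type pair summed as 1, the last chosen after seeing the data), 269 kept their direction and side of the threshold, 11 lost a call, 4 gained one and 20 reversed. Of the counts of members called, 68 stayed within 1.5 times and 10 did not. The replicate number as a block left each count of members called as it was (0 in Pcgf1-/-, Pcgf2/4-/- and Pcgf1/2/4-/-, 1 in Pcgf3/5-/-, 2 in Pcgf6-/- and in the libraries labelled Pcgf3/5/6-/-, and 3 and 1 for the latter against Pcgf6-/- and against Pcgf3/5-/-). Same-numbered libraries correlated between -0.46 and 0.38 over 21 pairs, so they share only a number. With the 2 groups alone, 1 member was called in Pcgf1/2/4-/- and 1 in the libraries labelled Pcgf3/5/6-/-, where Mageb18 did not pass the filter. With DESeq2, 1 was called in the libraries labelled Pcgf3/5/6-/- against Pcgf6-/-. With each library left out, the count ran from 0 to 1 in Pcgf2/4-/- and Pcgf3/5-/-, from 1 to 2 in the libraries labelled Pcgf3/5/6-/- and from 1 to 3 for these against Pcgf6-/-. With the wild-type pair summed, Mageb3 was called there against wild-type (-2.56, edgeR adjusted p = 0.0477). The cause of these moves was not tested beyond the construction named.

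Reversals came from members near 0 or at a few reads. Mageb16 went to -0.017 in Pcgf3/5-/- with no filter, and to 0.061 and 0.060 in the libraries labelled Pcgf3/5/6-/- with RLE and with DESeq2. For the latter against Pcgf3/5-/-, Mageb16 went to 0.040 with RLE, to 0.039 with DESeq2 and to 0.0078 with the 2 groups alone, and Mageb16-ps1 to 0.0046 with RLE and 0.040 with DESeq2. With each library left out, Mageb3 ran from -1.49 to 0.47 in Pcgf1-/-, -1.76 to 0.20 in Pcgf2/4-/-, -1.10 to 0.86 in Pcgf3/5-/-, -0.18 to 1.78 in Pcgf6-/- and -1.76 to 0.20 in Pcgf1/2/4-/-. Mageb16 ran from -0.076 to 0.23 in Pcgf1-/-, -0.030 to 0.54 in Pcgf2/4-/-, -0.076 to 0.094 in Pcgf3/5-/- and -0.11 to 0.054 for the libraries labelled Pcgf3/5/6-/- against Pcgf3/5-/-. Mageb4 ran from -0.43 to 1.50 in Pcgf2/4-/-. Mageb16-ps1 ran from -2.04 to 0.32 in the libraries labelled Pcgf3/5/6-/- and from -1.62 to 0.71 for these against Pcgf3/5-/-. A limit of 10 on −log10 q removed the PCGF2 peak near Mageb3 in Pcgf3/5-/- (0 left), and a window of 1 kb removed its H2AK119ub1 peak (0 left). Members at a few reads per library allow no firm direction.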
